A study of Acacia koa with 4 samples.

Results

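Ribosomal proteins and ribosomal RNA together form the small (40S) and large (60S) subunits of the ribosome that translates messenger RNA in the plant cytosol. Plants keep several genes for most of these proteins, and their transcripts are usually produced together and are abundant in growing tissue. The transcripts described here come from seedlings of Acacia koa, a leguminous forest tree of Hawaii, and were chosen by the text of their annotation: the description had to contain ribosomal protein, 40S or 60S, and could not mention a kinase, a chloroplast, a mitochondrion or a methyltransferase. This took 48 of the 4000 transcripts on the array, or 1.2%. Every one of the 48 descriptions named 40S or 60S, the subunits of the cytosolic ribosome. They divided into 28 transcripts under 17 protein names of the large subunit and 20 transcripts under 12 protein names of the small subunit.

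The stressed seedlings were bent by hand at the stem in 4 directions without being wounded, and the unstressed seedlings were left unbent. Each group held 2 pools of about 20 seedlings, and each pool was hybridised to its own 1-colour array. The labels give the tissue as seedling, with no age, genotype or interval between bending and freezing. Every value is the log2 of an RMA intensity (a summary of the probes of a transcript), so that a difference of 1 is a 2-fold change. The median intensity of the arrays lay between 981 and 1018. RNA of green tissue was present in all pools, with a chlorophyll a/b-binding protein (A61) at 15.91 and 15.95 in stressed pools and at 15.92 and 15.95 in unstressed pools. These values lie near the array maximum of 15.99, so they cannot show whether the share of green tissue differed between pools. RNA came from powdered seedlings, so fewer cells of a type and less RNA per cell cannot be told apart.

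The question was whether bending changed the level of ribosomal protein transcripts. None of the 48 passed the test in either direction (limma, Benjamini-Hochberg adjusted p under 0.05), where 0.95% of all transcripts did. At an unadjusted p under 0.05 there was 1, the large-subunit protein L14 (A3416), or 2.08% of members against 5.5% of all transcripts. Small positive differences were nevertheless common. The log2 difference, stressed minus unstressed, was positive for 40 of 48 members (83.3%) against 39.2% of all transcripts. Its median over the members was 0.12, a 1.09-fold difference, against −0.04 over all transcripts.

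**Figure D1:**
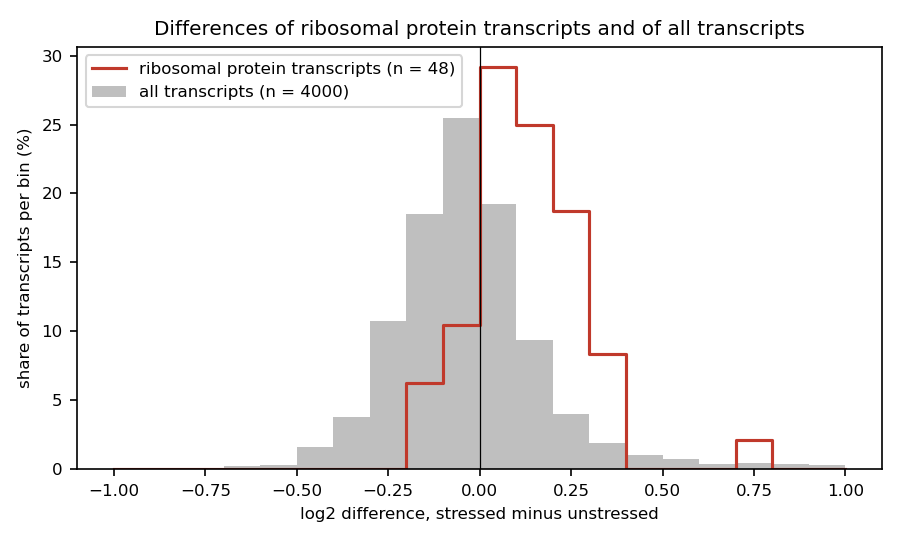
Share of transcripts (vertical axis, %) by log2 difference, stressed minus unstressed (horizontal axis, bins of 0.1), for the 48 ribosomal protein transcripts (red outline) and all 4000 transcripts (grey bars), of which 61 lie outside the plotted range. The outline is centred right of 0 (median 0.12) and the bars left of it (median −0.04), and the red box at 0.7 to 0.8 is the L14 transcript.

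For most members, as for most of all transcripts, the difference between the groups was smaller than the gap between the unstressed pools. Unstressed replicate 1 held the lowest of the 4 values for 40 of 48 members (83.3%, against 28.9% of all transcripts). Unstressed replicate 2 lay above unstressed replicate 1 for 43 of 48 members (50.7% of all transcripts), by a median of 0.27 log2, or 1.20-fold. Over all transcripts that median gap was 0.0044. The stressed pools lay close together and close to unstressed replicate 2. Expressed as the distance from each transcript's own mean over the 4 pools, the median member was at 0.041 and 0.088 in stressed replicates 1 and 2, and at −0.20 and 0.061 in unstressed replicates 1 and 2. The SD between replicates had a median of 0.071 in the stressed group and 0.20 in the unstressed group over the members, and 0.099 and 0.15 over all transcripts.

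The result depended on which unstressed pool was used. Against unstressed replicate 1 alone the stressed mean was higher for 41 of 48 members (46.2% of all transcripts), with a median difference of 0.26. Against unstressed replicate 2 alone it was higher for 22 of 48 (40.5% of all transcripts), with a median difference of −0.0024. The difference between the groups exceeded the gap between the unstressed pools for 11 of 48 members (22.9%), against 31.4% of all transcripts. The median half-width of limma's 95% confidence interval was 0.40 log2 for a single member, or 1.32-fold, so a shift as small as the median could not be resolved for any one transcript. For 47 of 48 members the interval included 0.

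**Figure D2:**
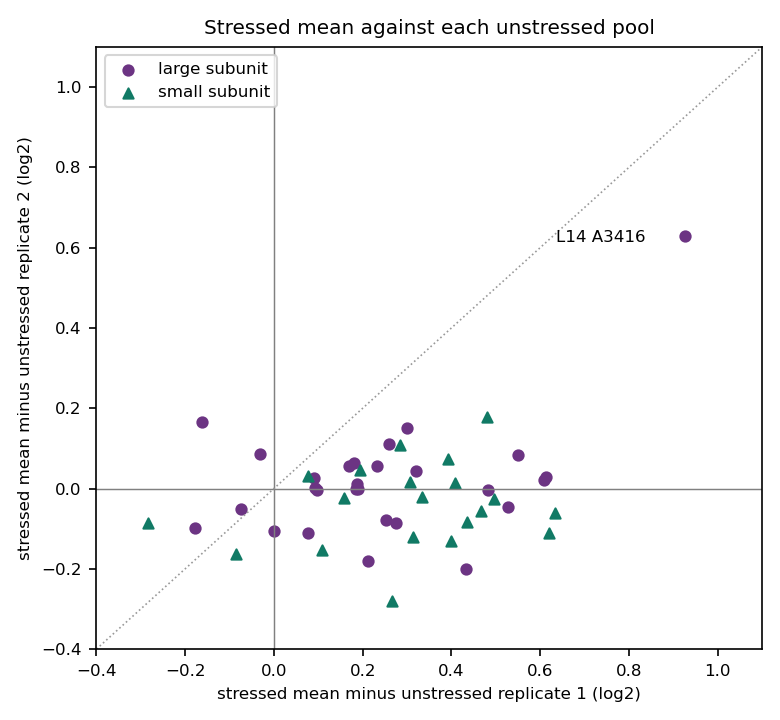
Each point is 1 ribosomal protein transcript (purple circles, large subunit; green triangles, small subunit), placed by the stressed mean minus unstressed replicate 1 (horizontal axis, log2) and by the stressed mean minus unstressed replicate 2 (vertical axis, log2). Most points lie right of 0 (41 of 48) but are spread around 0 on the vertical axis (22 of 48 above it), while L14 (A3416) stands apart at 0.93 and 0.63; both axes share the stressed mean, and the dotted line marks equal values.

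L14 was the member with the largest difference. Its log2 level was 11.26 and 11.81 in stressed pools, against 10.61 and 10.91 in unstressed pools. Both stressed values lay above both unstressed values, and stressed replicate 2 was the highest by a wide margin. The mean was 11.53 ± 0.38 in stressed and 10.76 ± 0.21 in unstressed pools (SD, n = 2 each), a level 1.71-fold higher (95% confidence interval 1.14 to 2.58, limma unadjusted p = 0.0196, adjusted p = 0.56). The difference of 0.78 was 0.51 without stressed replicate 2, and 1.05 without stressed replicate 1. Of all the fits tried, only that with replicate number as a block called it, a pairing that the labels do not state (see the closing section). L14 was represented by this transcript alone, so no relative was at hand for comparison, and 87 transcripts of the array had a larger positive difference. Without it the median over the other 47 members was still 0.12, with 39 positive.

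Both stressed pools lay above both unstressed pools for 11 of 48 members (22.9%), against 12% of all transcripts. Both lay below for 3 of 48 (6.25%), against 19.5%. Besides L14, the 10 separated upwards had differences of 0.11 to 0.33 and unadjusted p-values from limma between 0.0857 and 0.406. In 7 of the 11 the lower stressed value cleared the higher unstressed value by less than 0.05. The margin was therefore small for most of them.

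The largest difference among these after L14 was that of S14 (A2643), a protein of the platform of the small subunit near the messenger RNA exit. It was at 13.21 and 13.31 in stressed pools, against 12.78 and 13.08 in unstressed pools, a difference of 0.33 (95% confidence interval −0.07 to 0.73, limma adjusted p = 0.99). L30 (A1562) was at 13.13 and 13.12 in stressed pools, against 12.82 and 12.97 in unstressed pools, a difference of 0.23 (−0.10 to 0.55). For both, the interval included 0, and the larger part of the difference came from unstressed replicate 1. The acidic stalk protein P1 (A2848), which helps to recruit elongation factors, was at 10.90 and 10.86 in stressed pools, against 10.65 and 10.82 in unstressed pools. S23 (A2393), a protein of the decoding centre, was at 9.46 and 9.59 in stressed pools, against 9.14 and 9.45 in unstressed pools. The others separated upwards were L10 (A4250), L11 (A3142), L34 (A120318), S4 (A726), S8 (A738) and S13 (A2302), with differences between 0.11 and 0.21.

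The 3 members separated downwards were S25 (A216184), L18A (A10675) and S8 (A54827), with log2 differences of −0.19, −0.14 and −0.12. S25 was at 7.51 and 7.60 in stressed pools, against 7.84 and 7.64 in unstressed pools. L18A was at 10.83 and 10.81 in stressed pools, against 11.00 and 10.92 in unstressed pools. S8 was at 10.14 and 10.20 in stressed pools, against 10.25 and 10.33 in unstressed pools. The gaps were small in each, and each confidence interval included 0. Each of the 3 proteins had a second transcript whose difference was positive.

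**Figure D3:**
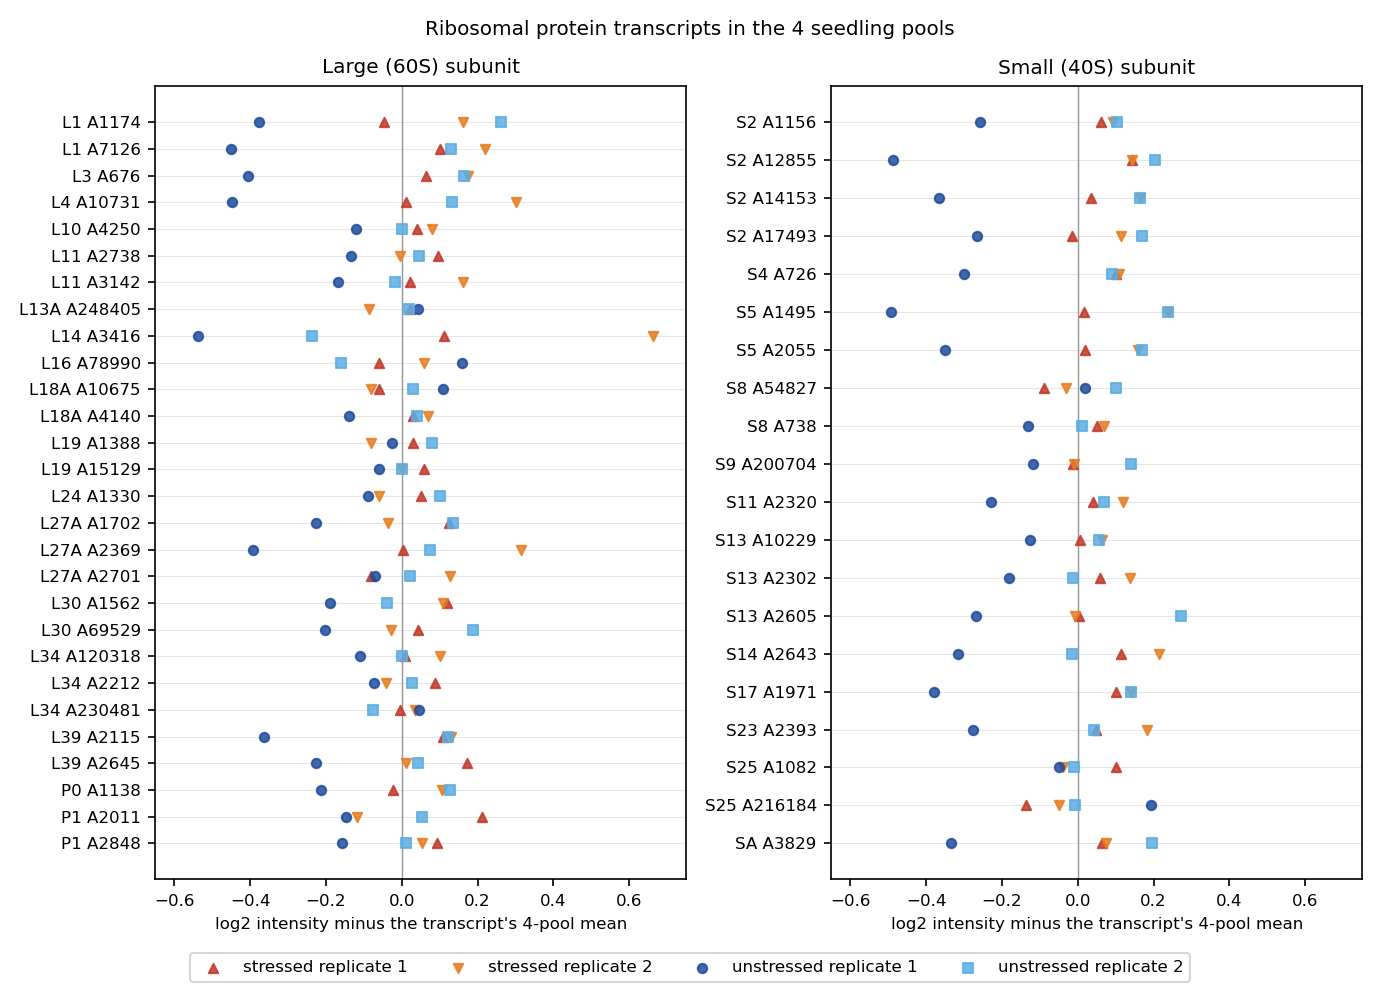
Log2 intensity of each of the 48 transcripts minus its own mean over the 4 pools (horizontal axis), in stressed replicates 1 and 2 (triangles pointing up and down) and unstressed replicates 1 and 2 (circles and squares), by subunit. The circles of unstressed replicate 1 lie leftmost in 40 of 48 rows, and L14 (A3416) is the row in which both stressed pools lie farthest right of both unstressed pools.

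In the large subunit, 24 of 28 transcripts had a positive difference, with a median of 0.096 and a range of −0.14 to 0.78. Unstressed replicate 2 exceeded unstressed replicate 1 by a median of 0.18. Within this subunit the transcripts of L3, L4 and L1 had the widest gaps between the unstressed pools. L3 (A676), which reaches the peptidyl transferase centre, was at 14.60 and 14.71 in stressed pools, against 14.13 and 14.70 in unstressed pools. L4 (A10731), a protein that lines the exit tunnel, was at 12.65 and 12.94 in stressed pools, against 12.19 and 12.77 in unstressed pools. Both thus had unstressed replicate 2 at the level of the stressed pools and unstressed replicate 1 alone below it. The name L1, which is also used for L4 in plants, was carried by A1174 and A7126. A1174 was at 14.25 and 14.46 in stressed pools, against 13.92 and 14.56 in unstressed pools. A7126 was at 12.71 and 12.83 in stressed pools, against 12.16 and 12.74 in unstressed pools. The L1 and L4 transcripts therefore showed the same low pool, with gaps between the unstressed pools of 0.63, 0.58 and 0.59 for A1174, A7126 and A10731. L39, a small protein of the exit tunnel, had differences of 0.24 (A2115) and 0.18 (A2645).

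The stalk base protein P0 (A1138), to which the P1 proteins bind, had the brightest signal of the members, at 14.92 and 15.05 in stressed pools, against 14.73 and 15.07 in unstressed pools. Its difference was 0.087. The other P1 transcript (A2011) was at 10.87 and 10.54 in stressed pools, against 10.51 and 10.71 in unstressed pools, so the groups overlapped. L11 (A2738), which binds the 5S ribosomal RNA, was at 12.18 and 12.08 in stressed pools, against 11.95 and 12.13 in unstressed pools. Several large-subunit transcripts had differences between the groups close to 0. L19 (A15129), which reaches across to the small subunit, was at 12.77 and 12.71 in stressed pools, against 12.65 and 12.71 in unstressed pools. The L34 transcripts A2212 and A230481 had differences of 0.047 and 0.028. L16 (A78990) had a difference of 0.0014 although its unstressed pools lay apart, and here unstressed replicate 1 was the highest pool, at 12.14 against 11.82 in unstressed replicate 2. L24 (A1330), which in Arabidopsis takes part in the reinitiation of translation, had a difference of −0.016, and L13A (A248405) one of −0.063.

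In the small subunit, 16 of 20 transcripts had a positive difference, with a median of 0.16 and a range of −0.19 to 0.33. The gap between the unstressed pools was wider than in the large subunit, with a median of 0.34 against 0.18, and unstressed replicate 1 was the lowest pool for 18 of 20 small-subunit transcripts (90%) and 22 of 28 large-subunit ones (78.6%). The difference between subunits was not tested, because transcripts measured in the same pools are not replicates. Without unstressed replicate 1 the median difference was −0.042 in the small and 0.0064 in the large subunit.

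S2, a protein at the entry of the messenger RNA channel, was represented by 4 transcripts that shared 1 description. A12855 was at 11.14 and 11.14 in stressed pools, against 10.51 and 11.20 in unstressed pools. A14153 was at 10.53 and 10.66 in stressed pools, against 10.13 and 10.66 in unstressed pools. A1156 was at 14.64 and 14.67 in stressed pools, against 14.32 and 14.68 in unstressed pools. The fourth, A17493, followed them, with differences over the 4 transcripts of 0.097 to 0.29. In each of these the value of unstressed replicate 2 exceeded the stressed mean, and unstressed replicate 1 was lowest. S5, which lies at the messenger RNA exit, showed the same order. Its transcript A1495 was at 10.96 and 11.18 in stressed pools, against 10.45 and 11.18 in unstressed pools, and A2055 was at 11.85 and 11.99 in stressed pools, against 11.48 and 12.00 in unstressed pools. A1495 had the widest gap between the unstressed pools of all members, 0.73.

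S17 (A1971) was at 12.43 and 12.47 in stressed pools, against 11.95 and 12.47 in unstressed pools. SA (A3829), which is related to the animal protein known as the laminin receptor, was at 12.96 and 12.97 in stressed pools, against 12.56 and 13.09 in unstressed pools. For these too, unstressed replicate 1 stood alone below the others. In all, 11 of 48 members had unstressed replicate 2 at least 0.5 above unstressed replicate 1, against 6.48% of all transcripts. They were the transcripts A1174, A7126, A10731 and A676 of L1, L4 and L3, A12855 and A14153 of S2, both of S5, 1 of S13 (A2605), S17 and SA. Among the remaining small-subunit proteins, S11 (A2320) had a difference of 0.16, S9 (A200704) one of −0.022, and S25 (A1082) one of 0.055.

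Of the 29 protein names, 14 were carried by more than 1 transcript, 33 transcripts in all. Names were counted as given, so L1 and L4 were kept apart. In 9 of the 14 all transcripts had a positive difference, and in 5 the signs differed. These 5 were L18A, L19, S8, S13 and S25. For S8, A738 had a difference of 0.12 and A54827 one of −0.12. For S25, A1082 was at 0.055 and A216184 at −0.19, and for L18A, A4140 was at 0.099 and A10675 at −0.14. For S13, A10229 and A2302 were at 0.068 and 0.20, against −0.0073 for A2605. For L19, A15129 was at 0.058 and A1388 at −0.053. The confidence interval of every transcript of these 5 proteins included 0. The widest range within a protein was that of L27A, at 0.047 (A2701), 0.094 (A1702) and 0.32 (A2369). Transcripts of 1 protein can be close relatives whose RNA binds each other's probes.

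Few of the dimmest members had a positive difference. Members spanned 7.42 to 15.07 on the log2 scale, within an array range of 5.47 to 15.99. Of the 5 members among the dimmest 25% of transcripts (S9 A200704, L27A A2701, L13A A248405, S25 A216184 and L19 A1388), 1 had a positive difference. Of the other 43 members 39 did, and of the 22 in the brightest 25% it was 21. Over all transcripts the share with a positive difference hardly depended on brightness, at 40% in the dimmest and 38% in the brightest 25%. The gap between the unstressed pools in the brightest 25% had a median of 0.25 for the members and 0.055 for all transcripts. Brightness depends on the probes as well as on the RNA, so it does not order the proteins by abundance.

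Other parts of the translation machinery were covered thinly. Elongation factors, which carry aminoacyl-tRNA to the ribosome and move it along the messenger RNA, gave 12 transcripts. Limma called 0 (0.95% of all transcripts), and 0 had an unadjusted p under 0.05 (5.5% of all transcripts). With 12 transcripts these counts say little. Of the 12, 8 were positive (39.2% of all transcripts), with a median difference of 0.046. An elongation factor 1-alpha (A21007) was at 12.80 and 13.08 in stressed pools, against 12.80 and 12.98 in unstressed pools, and elongation factor 1-beta (A1548) was at 14.32 and 14.28 in stressed pools, against 14.26 and 14.38 in unstressed pools. Their gaps between the unstressed pools, 0.19 and 0.12, were smaller than the median of 0.27 for the ribosomal members. Over the 12 transcripts the median gap was 0.065. This list also held factors Tu, Ts and G, and transcripts near the ends of the array range. Examples were an EF-2 (A349760) at 5.66 to 5.73 and an elongation factor 1-alpha (A123) at 15.94 to 15.95. Gaps may be understated there, so the median does not stand for cytosolic elongation factors. The widest gaps were 0.61 for a factor Tu (A13017) and 0.86 for a factor Ts (A39135). Such factors work in plastids and mitochondria. Other transcripts of factors Tu and Ts had gaps of 0.023 (Tu, A327441), −0.016 (Tu, A741) and 0.21 (Ts, A676378). Of these, A741 was bright, at 13.07 to 13.16. A327441 and A676378 lay between 5.54 and 5.75, near the array minimum of 5.47, where a gap may be understated. A13017 was at 11.53 and 11.76 in stressed pools, against 11.14 and 11.74 in unstressed pools, and A39135 at 8.32 and 8.80 in stressed pools, against 8.02 and 8.88 in unstressed pools. The search terms for initiation factors, for aminoacyl-tRNA synthetases and for ribosome biogenesis found 0 transcripts each.

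The transcript that the selection left out, a ribosomal protein S6 kinase (A132084), belongs to a family that phosphorylates protein S6 of the small subunit downstream of the growth regulator TOR. It was at 9.36 and 9.29 in stressed pools, against 9.68 and 9.67 in unstressed pools. Both stressed values lay below both unstressed values, which were nearly equal. The difference was −0.35 (95% confidence interval −0.65 to −0.04, limma unadjusted p = 0.0320, adjusted p = 0.72), so it did not pass the test. The 2 proteasome transcripts A7321 and A2660 had differences of −0.071 and 0.0047.

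Transcripts of the list for dividing cells were also often lowest in unstressed replicate 1 (56.5%, against 28.9% of all transcripts). That list held 62 transcripts, 14 of which were F-box proteins or a ribosome recycling factor caught by the search term cyclin. Among the other 48, 38 were higher in unstressed replicate 2 than in unstressed replicate 1 (50.7% of all transcripts), with a median gap of 0.26. Over the full 62 the median gap was 0.20. The 48 consisted of 25 transcripts whose description named cyclin and 23 that named tubulin, with a median gap of 0.26 for each. Histones and proliferating cell nuclear antigen were also searched for, but no transcript of the 48 came from them. The list therefore rests on cyclin and tubulin names alone. Unstressed replicate 1 was the lowest pool for 62.5% of the 48. The median distance from each transcript's own mean was −0.044 and 0.046 in stressed replicates 1 and 2. It was −0.14 and 0.12 in unstressed replicates 1 and 2, so both stressed pools lay between the unstressed ones. In the ribosomal members stressed replicate 1 (0.041) did so too, and stressed replicate 2 (0.088) lay above unstressed replicate 2 (0.061). The median difference of the 48 cyclin and tubulin transcripts between the groups was −0.0026, with 24 positive and 24 negative. Limma called 0 (0.95% of all transcripts), and 0 had an unadjusted p under 0.05 (5.5% of all transcripts). The lists for xylem and secondary wall (43 transcripts), root and nodule (7) and green tissue (2) had median gaps between the unstressed pools of −0.083, −0.059 and −0.0093. The part that the makeup of the pools had in the ribosomal values was not tested.

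**Figure D4:**
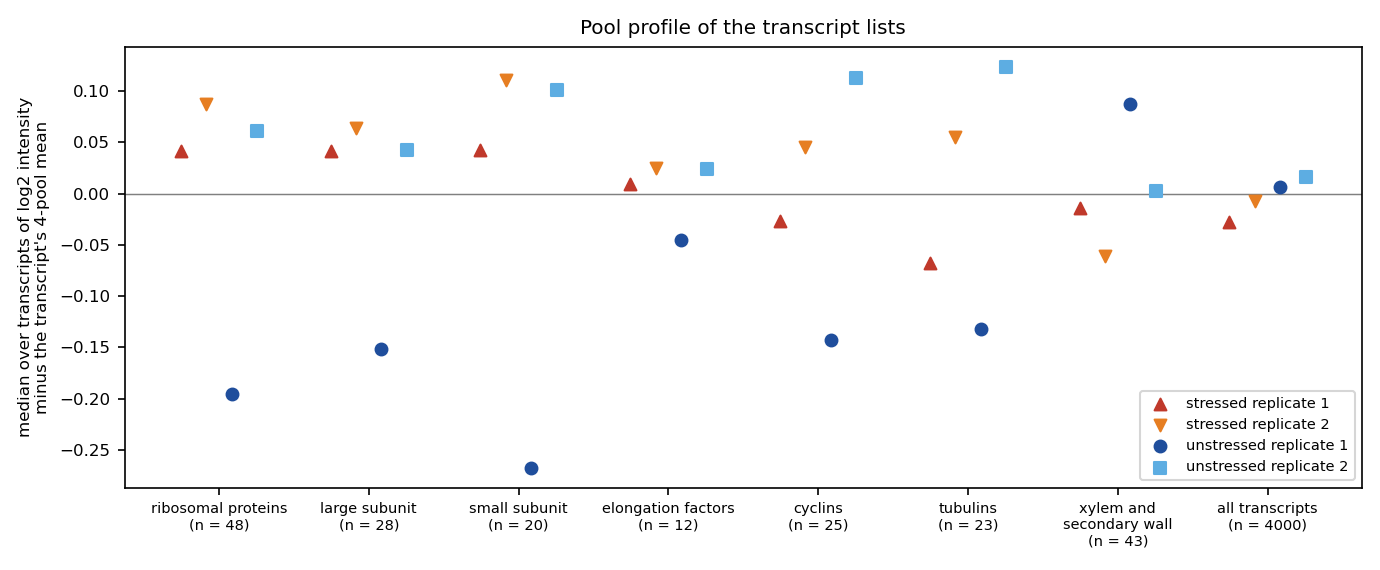
Median over the transcripts of a list of the log2 intensity minus the transcript's own 4-pool mean (vertical axis), for stressed replicates 1 and 2 (triangles) and unstressed replicates 1 and 2 (circles and squares). Unstressed replicate 1 lies at −0.20 for the ribosomal proteins and at −0.14 and −0.13 for cyclins and tubulins, against 0.0063 for all transcripts. The stressed pools lie above unstressed replicate 2 for neither cyclins nor tubulins. For the ribosomal proteins only stressed replicate 2 (0.088) does, as stressed replicate 1 (0.041) lies below unstressed replicate 2 (0.061). The list shown as cyclins holds descriptions that name cyclin, among them cyclin-dependent kinases (A9589), without F-box proteins.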

How the data were processed

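RNA of 4 seedling pools was measured on 1-colour NimbleGen arrays. The authors deposited linear RMA intensities for 4000 transcripts, per the submitters' processing notes and the file headers; software versions were not stated there. RMA evens out the arrays, so a change common to most transcripts would have been removed, and folds of very dim or bright transcripts may be understated. Each member rested on 18 probes.

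Log2 intensities were compared with limma 3.58.1 (lmFit, eBayes; R 4.3.3), group being the only term, with 2 residual and 2.93 prior degrees of freedom and Benjamini-Hochberg adjustment over all transcripts. An exact permutation test of 2 against 2 pools cannot go below p = 0.333 (two-sided) and was not used. The number of arrays limits the precision. The fit was tested on simulated data. Members, lists and tests were chosen with earlier results of these data known. The rule for named transcripts allowed every member, with those separated between groups, brightest, dimmest or sharing a protein first, and up to 3 per other list with the smallest p. Elongation factors and green tissue transcripts beyond these were named after their values were seen. Transcripts with a similar pattern were not sought, as 4 pools are too few. The alternatives tried are given in the closing section.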

Additional observations from a re-analysis of the deposited data

How the results depend on the processing

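Median centring, quantile normalization, an offset of 64, a filter on the dimmest 25% and a variance trend left 0 members called, 39 or 40 positive (39 of 43 with the filter) and a median difference of 0.11 to 0.13. Counting 1 value per distinct description gave 26 of 32 positive with a median of 0.12, naming 40S or 60S took the same 48, and 43 of 48 lay above the median of all transcripts. Leaving out 1 pool changed more. The lowest and highest values in these 4 fits were 8 and 27 for all transcripts called (38 with all pools), 0 and 16 for members at an unadjusted p under 0.05 (1 with all pools; the 0 came without unstressed replicate 1 and without stressed replicate 2, with 8.28% and 3.43% of all transcripts, and the 16 without unstressed replicate 2, with 14.8%), 22 and 41 for positive members, 13 and 40 for members separated upwards (25.9% and 34.5% of all transcripts in the same fits, since separation from a single pool is easier), −0.0024 and 0.26 for the median of all members, 0.0064 and 0.20 for the large subunit, and −0.042 and 0.32 for the small subunit. The low values for positive members and medians came without unstressed replicate 1, the high ones, of which 41 positive also came without stressed replicate 2, without unstressed replicate 2. No member was called in any of the 4, and 18 changed sign without unstressed replicate 1. With 1 pool left in a group, it is assumed to vary like the other group.

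The labels number the replicates 1 and 2 in both groups without saying that a number marks a shared batch. Deviations of same-numbered pools correlated at 0.505 over transcripts, which with 2 pairs does not settle a pairing. With replicate number as a block, 139 transcripts were called, 5 members (10.4%) and 11.6% of all transcripts passed an unadjusted p under 0.05, and 1 member was called, L14 (A3416, limma adjusted p = 0.0028, against 0.56 without the block); the counts of positive and separated members and the medians did not change.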

Other observations

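Outside the ribosomal list, the smallest p of the list for dividing cells were those of a tubulin beta chain (A11832) and of cyclin-dependent kinases (A9589). A11832 was at 13.11 and 13.10 in stressed pools, against 13.46 and 13.31 in unstressed pools. A9589 was at 12.86 and 12.89 in stressed pools, against 12.43 and 12.69 in unstressed pools. Neither passed the test (limma adjusted p = 0.99 for each). A smaller p, in the xylem and secondary wall list, was that of a cellulose synthase (A103931). It was at 10.87 and 10.77 in stressed pools, against 11.41 and 11.71 in unstressed pools (limma adjusted p = 0.25). Of the 43 transcripts of that list, 17 had a positive difference (39.5%, against 39.2% of all transcripts). In the root and nodule list the smallest p was that of a nodulin (A268015). It was at 9.00 and 9.01 in stressed pools, against 10.30 and 9.82 in unstressed pools (limma adjusted p = 0.17). It does not stand for that list, in which 5 of 7 transcripts had a positive difference (39.2% of all transcripts), with a median of 0.046.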
